A study of Mus musculus with 5 samples.

Results

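Type I collagen is built from the chains encoded by Col1a1 and Col1a2. These genes were followed together with 3 genes of other fibrillar or fibril-associated chains (Col3a1, Col5a2 and Col12a1) and with 4 genes whose products fold, trim, crosslink or bind collagen (Serpinh1, Pcolce, Lox and Sparc). The 9 genes were chosen by their log2 ratios between Erbb2-transfected and parental cells, in addition to their roles, so these ratios are given as a description and without a test. They were found through 17 of the 20205 probes, each named for 1 of the 9 symbols alone, among 9669 genes with such a probe. A value on at least 1 array was present for 16 of these probes.

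Collagen chains are made on the rough endoplasmic reticulum, where the chaperone encoded by Serpinh1 (Hsp47) holds the triple helix. After secretion the propeptides are cut off, a step that the product of Pcolce speeds up at the carboxyl end. Lysyl oxidase, the product of Lox, then oxidises lysines so that neighbouring molecules are crosslinked. Fibroblasts are the main producers of type I collagen in connective tissue, and loss of matrix production is a long-known feature of transformed fibroblasts in culture.

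One of the cell populations was NIH3T3, an immortalised mouse fibroblast line, without transfection. The other was NIH3T3 that constitutively overexpressed human ERBB2 (HER-2/NEU), a receptor tyrosine kinase, from a cytomegalovirus promoter. Both were kept in the same serum-containing medium, and the sources used here do not say whether the transfected line was 1 clone. RNA of both was hybridised together to each of 5 spotted cDNA arrays, 3 of preparation A (A1, A2 and A3) and 2 of preparation B (B1 and B2), and Erbb2 cDNA carried Cy3 on A1, A2 and B1 and Cy5 on A3 and B2. Whether the preparations were separate cultures is not given, so the spread between them may be technical. Each value is a log2 ratio in which Erbb2-transfected cells stand over NIH3T3 cells. Their direction is likely rather than certain. It rests on Cy5, the first channel in the labels, being the numerator, and under the opposite reading every sign turns. Arrays of opposite dye orientation correlated negatively before turning, with r over probes from -0.54 to -0.17. Arrays of the same orientation correlated positively, with r from 0.45 to 0.52. These correlations are the same under either numerator and do not settle the direction. A lower ratio cannot tell fewer producing cells from less RNA per cell.

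Arrays held values for 5368 to 17463 probes, that is 26.6% to 86.4% of all, and their medians lay between -0.0017 and 0.0071. Of the 17 collagen probes, 12 had a value on A1, 14 on A2, 10 on A3, 15 on B1 and 14 on B2. No probe was named for Erbb2, so the transfected gene was not analysed here. The fibroblast markers Vim and S100a4 had values on all 5 arrays and log2 ratios of 0.47 ± 0.32 and -0.01 ± 0.28 (SD, n = 2 preparations). A ratio shows no level, so the arrays show neither how strongly a marker was expressed nor that it was absent. Of 6 fibroblast markers tested, 1 was lower (Gas1 at -1.38 ± 1.37, adjusted p = 0.0414 by limma) and 1 higher (Pi16 at 0.77 ± 0.22, adjusted p = 0.0498 by limma). Gas1 had -2.35 in preparation A and -0.41 in preparation B. Vim and S100a4 did not pass, nor did Fap at -0.60 ± 0.05 and Pdpn at 0.38 ± 0.37 (SD, n = 2 preparations), each with values on 4 arrays. Over all tested features, 4.54% were called lower and 2.25% higher. Among markers of epithelium, endothelium, muscle and adipocytes, 5 were tested and 0 passed, with log2 ratios from -0.33 to 0.21. No macrophage or leukocyte marker had the values the test needs. Sox9, tested as a marker of cartilage, was higher, at 1.90 ± 0.42 (adjusted p = 0.000398 by limma), while Acan, of the same list and outside the test, had -0.98, -1.35 and -1.12 on arrays A2, B1 and B2, and Alpl had -0.16 and -0.11 on B1 and B2. The part of these markers in the collagen ratios was not tested.

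Promoters are shown of a collagen chain that was low in the ratios described next (Col1a2), of one that was not (Col3a1) and of the chaperone (Serpinh1). The stretches are the 250 bases before the annotated start, 5′ to 3′ on the gene's strand, from RefSeq on GRCm38.p6, in which 5 of the 9 genes had an entry. Col1a2 lies at chr6:4505368-4505617 (plus strand), Col3a1 at chr1:45311288-45311537 (plus strand) and Serpinh1 at chr7:99353240-99353489 (minus strand). Capitals mark matches on either strand to CCAAT, to the GC box GGGCGG, to TATAAA and to the Smad motif CAGACA.
Col1a2: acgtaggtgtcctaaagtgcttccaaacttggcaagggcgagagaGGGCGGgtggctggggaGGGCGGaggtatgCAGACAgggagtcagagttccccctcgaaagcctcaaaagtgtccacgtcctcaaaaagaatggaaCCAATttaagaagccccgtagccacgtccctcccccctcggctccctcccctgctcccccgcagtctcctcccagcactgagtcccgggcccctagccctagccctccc
Col3a1: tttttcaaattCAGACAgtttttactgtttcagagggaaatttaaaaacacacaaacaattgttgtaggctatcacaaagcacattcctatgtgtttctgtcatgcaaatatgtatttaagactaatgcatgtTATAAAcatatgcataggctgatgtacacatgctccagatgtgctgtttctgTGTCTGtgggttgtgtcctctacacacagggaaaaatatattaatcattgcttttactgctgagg
Serpinh1: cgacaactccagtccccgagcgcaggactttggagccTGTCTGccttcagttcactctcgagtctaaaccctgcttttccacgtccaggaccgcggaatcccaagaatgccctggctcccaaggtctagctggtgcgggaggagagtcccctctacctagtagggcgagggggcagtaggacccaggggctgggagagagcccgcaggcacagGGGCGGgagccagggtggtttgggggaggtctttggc

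The Col1a2 stretch held 1 CCAAT match, at -109 to -105 from the start, 2 GC boxes and 1 Smad motif, and had a GC content of 62%. The Col3a1 stretch held no CCAAT match and no GC box, 1 TATAAA match and 2 Smad motifs, with a GC content of 35.2% and 0 CpG sites against 11 in Col1a2. In Serpinh1 there were 1 GC box, 1 Smad motif and 11 CpG sites. Pcolce had 1 GC box and Sparc 1 Smad motif. Of 32851 promoters of the same length, 33.8% held CCAAT, 32.7% the GC box, 12.4% TATAAA and 17.1% the Smad motif. These matches describe letters in a window and no binding was measured.

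Both chains of type I collagen were far lower in Erbb2-transfected cells, on every array. Col1a1, which supplies most of the chains of the type I trimer, had -5.45 on A1, -4.67 on A2, -3.74 on A3, -5.29 on B1 and -5.63 on B2. All arrays lay well below 0, and A3 was the least low. Its mean over preparations was -4.93 ± 0.75 (SD, n = 2), which is 30.5-fold lower. Col1a2, the gene of the other chain, had -3.69, -2.63, -4.98, -3.40 and -4.35 on A1, A2, A3, B1 and B2, with a mean of -3.97 ± 0.14 (SD, n = 2), 15.7-fold lower. Both arrays with Erbb2 cDNA in Cy5 were lower for Col1a2 than the 3 others. Among 4892 tested features, ordered from the lowest ratio, Col1a1 was at place 1 and Col1a2 at place 7, where the median of all features was -0.02 and the 1st percentile -1.55.

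**Figure D1:**
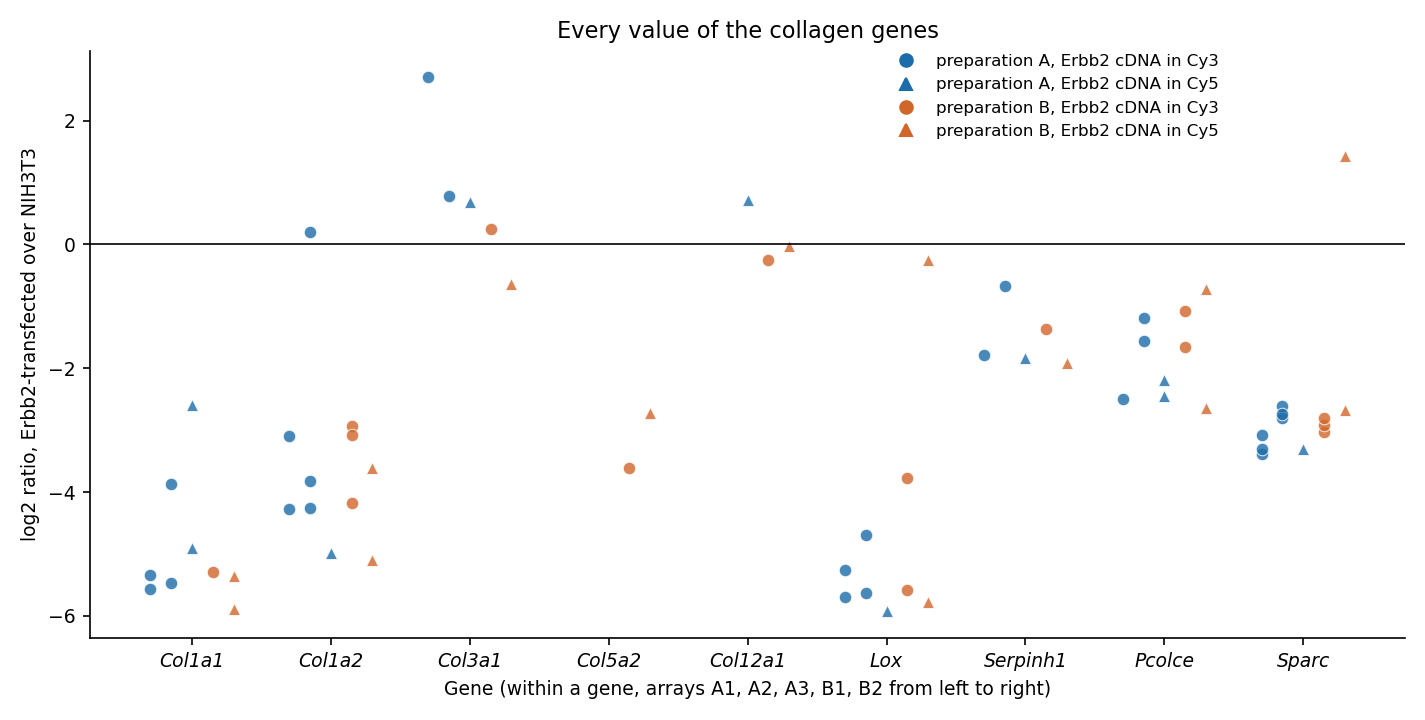
Log2 ratio (vertical axis) of every collagen probe with a value, for each gene (horizontal axis) and, within a gene, for arrays A1, A2, A3, B1 and B2 from left to right; each symbol is 1 probe on 1 array, coloured by preparation and shaped by the dye of Erbb2 cDNA. Of 65 values, 58 lie below 0, and single values of Col1a2, Lox and Sparc stand far above the others of their gene.

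The remaining chains did not follow type I collagen as a group. Col3a1, the fibrillar chain of type III collagen, which shares fibrils with type I, had 2.70 on A1, 0.78 on A2, 0.69 on A3, 0.26 on B1 and -0.64 on B2. It was above 0 on 4 of 5 arrays, and A1 stood above the others. Its mean was 0.51 ± 0.99 (SD, n = 2), with preparation A at 1.22 and preparation B at -0.19. Col5a2, a chain of type V collagen, which nucleates type I fibrils, had values on B1 and B2 alone, -3.61 and -2.72. The mean of -3.17 on these arrays corresponds to 8.97-fold lower in 1 preparation, with no value from the other. Col5a2 is the neighbour of Col3a1 on chromosome 1 (GRCm38.p6, 45374331 to 45503282 against 45311538 to 45349706), and on the arrays that measured both the ratios were -3.61 against 0.26 and -2.72 against -0.64. Col12a1, a fibril-associated chain without its own fibrils, had 0.72 on A3, -0.25 on B1 and -0.02 on B2 through 1 probe, while its other probe had no value. These values lay on both sides of 0.

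In the cell, Serpinh1 was lower on all arrays but far less than both chains of type I collagen. It had -1.78 on A1, -0.67 on A2, -1.83 on A3, -1.36 on B1 and -1.92 on B2, with A2 nearest to 0. The mean of -1.58 ± 0.08 (SD, n = 2) was 2.99-fold lower, at place 48 of the 4892 features. Outside the cell, Pcolce showed a similar size, with -2.50, -1.38, -2.32, -1.37 and -1.68 on A1, A2, A3, B1 and B2. Its mean was -1.83 ± 0.43 (SD, n = 2), 3.55-fold lower and at place 36. Its probes both lay below 0 wherever they had a value, and their means over preparations were -1.51 and -1.99.

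Lox had ratios as low as those of Col1a1. The array values were -5.48 on A1, -5.16 on A2, -5.92 on A3, -4.68 on B1 and -3.01 on B2, so that B2 was the least low. The mean was -4.73 ± 1.26 (SD, n = 2), 26.6-fold lower and at place 2 of all tested features. Sparc encodes a secreted glycoprotein that binds collagen and affects fibril assembly. It had -3.26, -2.72, -3.31, -2.91 and -0.62 on A1, A2, A3, B1 and B2, with a mean of -2.46 ± 0.98 (SD, n = 2), 5.5-fold lower and at place 18. Here too B2 stood apart from the other arrays.

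**Figure D2:**
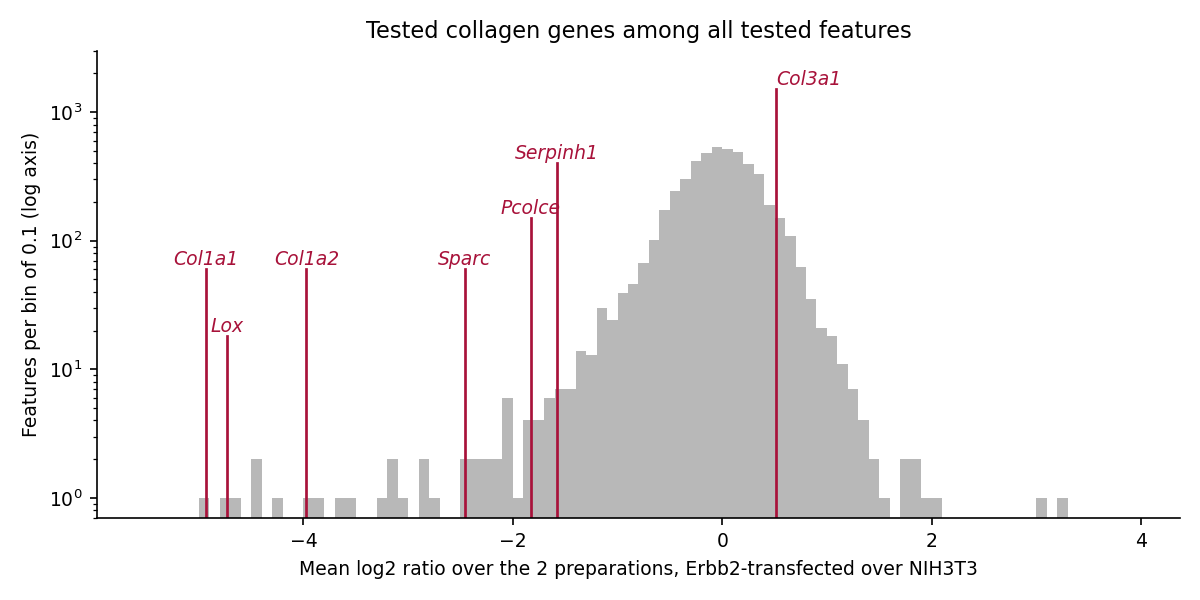
Number of tested features (vertical, log axis) per 0.1 of mean log2 ratio over the 2 preparations (horizontal); red lines mark the 7 tested collagen genes at heights that only separate their names. Col1a1, Lox and Col1a2 lie between -4.93 and -3.97, where few features are found. Col3a1 lies at 0.51, at place 4487 from the lowest of 4892 features.

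From the lowest mean the order was Col1a1, Lox, Col1a2, Sparc, Pcolce, Serpinh1 and Col3a1. Only the steps from Col1a2 to Sparc and from Serpinh1 to Col3a1 exceeded the SD between preparations of both neighbours, so the order within Col1a1, Lox and Col1a2 and within Sparc, Pcolce and Serpinh1 is not fixed by these data. Of the 9 genes, 7 had a value in both dye orientations of both preparations and entered the fit across all features, and Col5a2 and Col12a1 did not. The fit by limma called 6 of the 7 lower and 0 higher at an adjusted p under 0.05, against 4.54% of all tested features called lower. All 6 were below 0 on every array, as were 13.4% of tested features. Because the genes were chosen by this comparison, nothing is read from these counts.

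Probes of a gene often disagreed in size, and a few single spots set the gene's spread. Where a collagen gene had more than 1 probe on an array, in 20 pairs of gene and array, the median gap between its probes was 1.06, against 0.47 over 3708 such pairs of all genes. The gap exceeded 2 in 4 of the 20 pairs and in 75 of the 3708 pairs (2.02%). The collagen genes were chosen by their ratios, and genes with ratios of like size were not compared. Nothing is therefore read from this difference. On B2, 1 Lox probe had -0.25 and the other -5.77. On the same array 1 Sparc probe had 1.42 and another -2.67, and the former had -3.30, -2.74 and -2.80 on A1, A2 and B1. On A2, 1 Col1a2 probe had 0.20 while the others had -3.83 and -4.26, and the same probe had -3.08 and -3.61 on B1 and B2. The Col1a1 probe that had -5.57 on A1 and -5.36 on B2 had -2.59 on A3. Each of these probes was low on other arrays, but not all of them differed on 1 array alone. The same Lox probe had -3.77 on B1, where the other had -5.58. The same Col1a1 probe had -3.87 on A2, where the other had -5.47.

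With only the probes measured in both orientations of both preparations, the preparations lay closer together for Col1a1, Col1a2, Lox and Sparc, while Col3a1, Serpinh1 and Pcolce kept the same probes. Col1a1 then had -5.15 in A and -5.59 in B, Col1a2 -4.63 and -4.64, Lox -5.56 and -5.67, and Sparc -3.08 and -2.79. The means were -5.37 ± 0.31, -4.63 ± 0.01, -5.62 ± 0.08 and -2.94 ± 0.21 (SD, n = 2), which correspond to 41.4-fold, 24.8-fold, 49.0-fold and 7.65-fold lower. Lox moved most, from 26.6-fold to 49.0-fold. Each of these 4 genes was then represented by 1 probe.

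**Figure D3:**
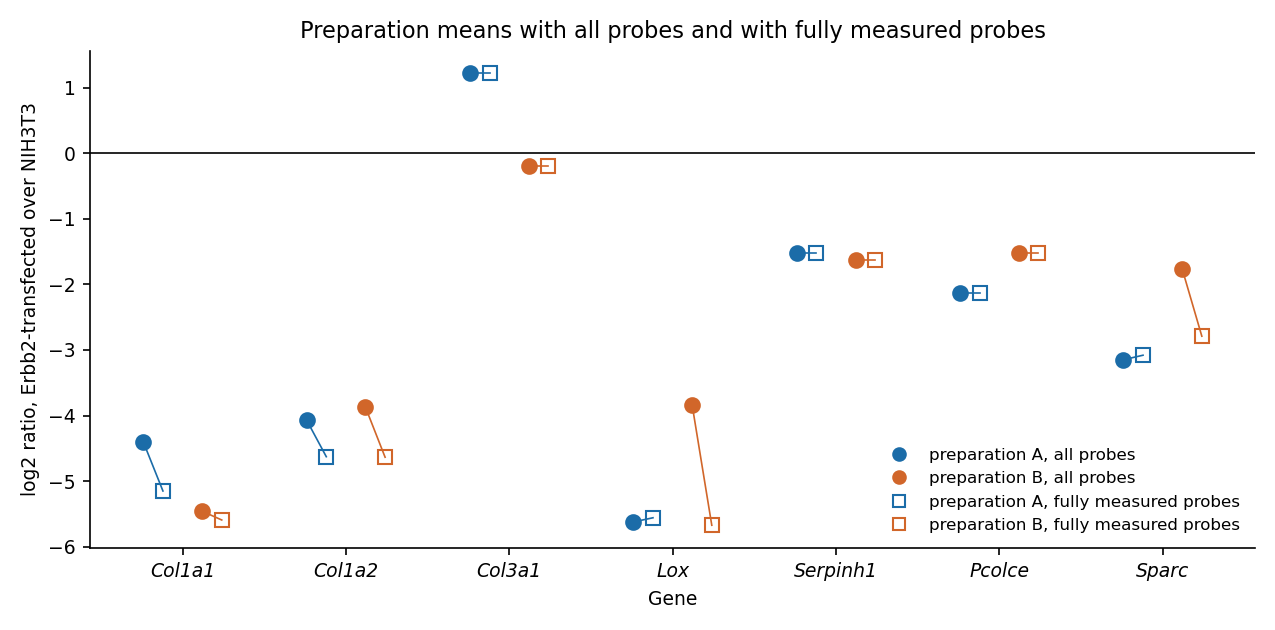
Log2 ratio (vertical axis) of preparation A (blue) and preparation B (orange) for the 7 genes with values in both orientations of both preparations (horizontal axis), over all probes (filled circles) and over fully measured probes alone (open squares). Lines join the same preparation: for Lox in preparation B the value moves from -3.84 to -5.67 and for Sparc from -1.77 to -2.79.

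Dye orientation and preparation were not used to choose the genes and were tested by limma on the 5 arrays. On simulated data these tests recovered 6.2% and 5.9% of differences of 1 on the log2 scale. A gene that did not pass may therefore still differ. Arrays of a preparation are repeat hybridisations, so these SEs and p-values cover the error between arrays, and the preparation difference sets 1 preparation against 1 other. Of the 7 genes, 0 showed a dye effect at an adjusted p under 0.05 and 1 at an unadjusted p under 0.05, where 0.593% of features were called at the adjusted threshold and 13.2% had an unadjusted p under 0.05. That gene was Col1a2, with a difference of -1.45 ± 0.42 (SE, Erbb2 cDNA in Cy5 minus Cy3, adjusted p = 0.148). Different probes of it had values in the orientations. With the fully measured probe alone the difference was -0.80 (unadjusted p = 0.0435 and adjusted p = 0.358 by limma), so it still passed the unadjusted threshold. Col1a1 had a dye difference of 0.61 ± 0.44 (SE, adjusted p = 0.578) and Lox one of 0.37 ± 0.47 (SE, adjusted p = 0.774). In each dye orientation the means of Col1a1, Col1a2 and Lox were low, at -5.18, -3.28 and -5.00 with Erbb2 cDNA in Cy3 and at -4.68, -4.67 and -4.47 in Cy5.

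Between preparations, 0 of the 7 genes passed at an adjusted p under 0.05 and 3 at an unadjusted p under 0.05, where 0.0204% of features were called at the adjusted threshold and 6.75% had an unadjusted p under 0.05. The 3 were Lox, Col3a1 and Sparc. For Lox the difference of A minus B was -1.62 ± 0.47 (SE, adjusted p = 0.503) and for Sparc -1.20 ± 0.50 (SE, adjusted p = 0.686). With fully measured probes these differences were 0.15 (adjusted p = 0.979) and -0.24 (adjusted p = 0.964), so for Lox the sign turned. For Col3a1, with a single probe, it was 1.42 ± 0.49 (SE, adjusted p = 0.609).

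Most other genes of the collagen pathway had small ratios. Lists of collagen chains, of procollagen modification, export and cleavage, of crosslinking, of collagen binding and receptors, and of regulators together held 98 genes with a probe, of which 36 could be tested. Of these, 3 were lower, 0 were higher and 33 did not pass. Over all features, 4.54% were called lower and 2.25% higher. At an unadjusted p under 0.05, 8 of the 36 were lower and 2 higher, against 13.1% and 9.77% of all features. The number called lower was 5 of 36 tested without A1, 4 of 25 without A2, 0 of 50 without A3, 1 of 36 without B1 and 0 of 37 without B2. The median of the 36 was -0.22 and the lowest was -1.17, against -1.58 for Serpinh1. The collagen genes described above were chosen by their ratios in this comparison and left out of the lists beforehand. The gap between them and the lists is therefore partly fixed by that choice, and nothing is read from it.

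**Figure D4:**
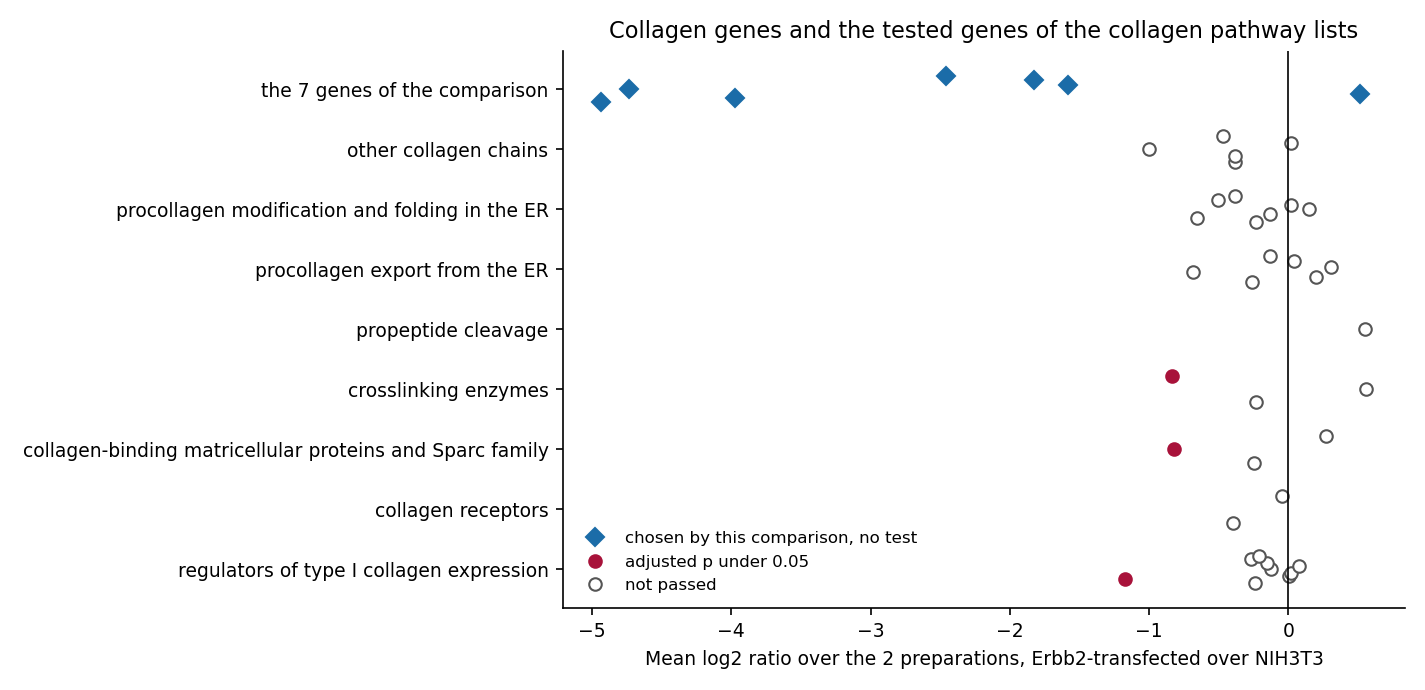
Mean log2 ratio over the 2 preparations (horizontal axis) of the 7 collagen genes in the fit (blue diamonds, not tested here) and of the tested genes of each pathway list (rows, circles; filled red where the adjusted p of limma was under 0.05). The 36 pathway genes lie between -1.17 and 0.56, and 3 passed. The 7 collagen genes were chosen by their ratios and left out of the lists.

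Of the other collagen chains, 5 were tested and 0 passed. Col6a1, of the beaded filament collagen VI, had -2.01, -1.73 and -1.83 on A1, A2 and A3 but -0.24 and -0.07 on B1 and B2, with a mean of -1.0 ± 1.19 (SD, n = 2; adjusted p = 0.0941 by limma). Preparation A alone thus carried its low mean. Col8a1, a short-chain collagen, had -0.47 ± 0.17 (adjusted p = 0.206). The basement membrane chains Col4a1 and Col4a2 had -0.38 and -0.39. Outside the test, Col18a1 had -1.14, -0.51 and -0.03 on arrays A2, B1 and B2, Col26a1 had -0.37, -0.39 and -1.04 on the same arrays, and Col9a3 had -0.22, -0.22 and -0.31 on A3, B1 and B2.

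Of the enzymes and chaperones that modify procollagen in the endoplasmic reticulum, 7 were tested and 0 passed, with a median of -0.23. Plod1, a lysyl hydroxylase, had -0.66 ± 0.90 (SD, n = 2; adjusted p = 0.19 by limma), with -3.25 on A2 and -0.73 to 0.27 on the other arrays. Ppib, a prolyl isomerase that acts on procollagen, had -0.50 ± 0.03 (adjusted p = 0.17). The prolyl hydroxylase subunit P4ha1 had -0.23, and Crtap, which takes part in prolyl 3-hydroxylation, had 0.02. P4ha2 was outside the test and had -1.17, -0.87, -1.03 and 0.05 on A1, A2, B1 and B2. Tmem38b and P4ha3, also outside the test, averaged -0.05 over 4 arrays and 0.27 over 3 arrays.

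For export from the endoplasmic reticulum, 6 genes were tested and 0 passed. Sec31a, of the outer vesicle coat, had -0.69 ± 0.35 (adjusted p = 0.0856 by limma), and Sec23a, of the inner coat, had 0.31. Mia3, whose product loads procollagen into carriers, had -0.26. Sec23b and Sec13, outside the test, averaged -0.49 and -0.19 over 4 arrays. For propeptide cleavage, Furin, a proprotein convertase, was the 1 gene tested, at 0.55 ± 0.56 (adjusted p = 0.196), while Mep1a averaged 0.06 over 3 arrays outside the test.

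Among crosslinking genes, Lox was chosen by its ratio of -4.73 and its relatives were not, so their distance from it is not read as a result. Loxl1 and Loxl3, which encode lysyl oxidase-like enzymes, had -0.23 (adjusted p = 0.547 by limma) and 0.56 (adjusted p = 0.143), and neither passed. Of 3 crosslinking genes tested, 1 was lower. This was Atp7a, the copper pump that supplies lysyl oxidase, with -0.84 ± 0.33 (SD, n = 2; adjusted p = 0.041). Tgm2, a transglutaminase, was measured on A2 and B1 alone, at -1.65 and -1.69. Of 3 collagen-binding genes and relatives of Sparc tested, 1 was lower, namely Fstl1, which shares a domain with Sparc, at -0.82 ± 0.42 (adjusted p = 0.0497). Tnc, encoding tenascin-C, was outside the test with values of -0.71, -0.53 and -1.06 on arrays A2, B1 and B2. Thbs2, a thrombospondin gene, averaged -0.14 on B1 and B2. Atp7a and Fstl1 were not called without array A3, B1 or B2.

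Of the collagen receptors, 2 were tested and 0 passed. Itgb1, the beta subunit of the collagen-binding integrins, was below 0 on all arrays, between -0.46 and -0.27 over 5 probes, with a mean of -0.40 ± 0.01 (SD, n = 2; adjusted p = 0.276 by limma). Lair1 had -0.05. Ddr2, a collagen-activated kinase, averaged -0.15 over 3 arrays outside the test.

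Of 9 tested regulators of type I collagen, 1 was lower. Tgfbr2, a receptor for the collagen-inducing factor TGF-beta, had -0.31 on A2, -1.04 on A3, -1.09 on B1 and -2.25 on B2, with a mean of -1.17 ± 0.70 (SD, n = 2; adjusted p = 0.0185 by limma). All 4 values were below 0 and spread widely. It was not called without A3 or B2 and had too few values without A2. The ligand gene Tgfb2, the signal transducer Smad4 and the promoter-binding factors Sp1 and Ybx1 had -0.24, 0.01, -0.13 and 0.07 and did not pass. Outside the test, Cebpd, a factor of the C/EBP family, had -1.01 on A1, -0.97 on A2, -0.27 on B1 and 0.83 on B2. Smad3 and Yap1 averaged 0.19 and 0.00 over 4 arrays.

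Of 2000 genes with values on all 5 arrays, Fn1, the fibronectin gene, had the pattern most like the mean of Col1a1 and Col1a2, with a root mean square difference of 0.31 on the log2 scale. Its values were -4.61, -4.01, -4.72, -4.70 and -4.70 on A1, A2, A3, B1 and B2. The following genes were less alike, with differences of 1.36 for Rgs2 (a regulator of G protein signalling), 1.39 for Timp3 (a metalloproteinase inhibitor), 1.74 for Ccl9 (a chemokine), 1.85 for Ccn1 (a matricellular protein) and 2.10 for Pdia6 (a disulfide isomerase). Since the measure takes level into account, it names genes that were low on all arrays.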

How the data were processed

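GenePix Pro 3.0 images of a GenePix 4000A scanner gave background-subtracted intensities, which the authors normalised to a median ratio of 1, per the labels. That the deposited values are log2 ratios was taken from the values: after removal of a constant, 11.3% (B1) to 49.8% (A2) of an array's values equalled log2 of some quotient of integers up to 300 within a tolerance of 6e-07. Under natural or base 10 logarithms the share was at most 3.74% on any array. Why values are empty is not stated in the labels.

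Probes of 1 symbol were averaged to a gene, arrays of 1 orientation to a mean, and orientations to a preparation mean. limma 3.58.1 (R 4.3.3; lmFit, eBayes, Benjamini-Hochberg, threshold 0.05) tested 2 preparation means against 0 for 4892 features, and dye and preparation as terms on 5 arrays. The fits were run on 20 simulated data sets, each with 200 changed features. Of changes of 1 on the log2 scale, the cell line fit recovered 73.3%, the dye test 6.2% and the preparation test 5.9%. Of changes of 2 they recovered 100%, 66% and 66.4%. On average 7.66% of the calls of the cell line fit on these simulated sets were false, at the threshold of 0.05. The simulated noise was independent between arrays. It held no error shared within a preparation and no dye effect in unchanged features. The rates may therefore differ in the measured data. Alternatives were other scalings, probe rules, thresholds and arrays left out. Genes and lists were chosen with earlier results of these data known. Named were the genes, up to 4 called genes per list, otherwise the 2 with the largest ratios, up to 3 untested genes per list, and the 6 most alike to Col1a1 and Col1a2; further genes were added after their values were seen. Figures used matplotlib 3.10.9 under Python 3.11.15.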

Additional observations from a re-analysis of the deposited data

Results flagged for a closer look

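In 18 sets of 4 or 5 array values, from the collagen genes and their probes, 3 held an array that stood apart, which chance alone gives in about 5% of such sets. The sets overlap, since gene values average the probe values, and both Sparc values below rest on the same spot. Sparc had -0.62 on B2 against -3.31 to -2.72 on the other arrays. One Sparc probe had 1.42 on B2 against -3.30 to -2.74. For Lox, 1 probe had -4.69 on A2 against -5.92 to -5.58.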

How the results depend on the processing

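The likely direction decides every sign: with Cy3 over Cy5, Col1a1, Col1a2, Lox, Serpinh1, Pcolce and Sparc become 4.93, 3.97, 4.73, 1.58, 1.83 and 2.46. Under the other alternatives these 6 genes kept their sign, with Col1a1 between -5.37 and -4.83, Col1a2 between -4.63 and -3.52, Lox between -5.62 and -4.32, Serpinh1 between -1.72 and -1.43, Pcolce between -1.97 and -1.69 and Sparc between -3.03 (without B2) and -1.89 (without B1). Col3a1 ranged from 0.27 to 0.78 and Col12a1 from 0.05 to 0.35. Leaving out spots over 2 from a gene's median, chosen after seeing the data, gave -5.22, -4.15, -5.42 and -2.97 for Col1a1, Col1a2, Lox and Sparc.

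The count of features called between cell lines, 332, was 124 with arrays scaled to equal spread, 193 with quantile normalization, 544 with each probe its own feature, 564 with fully measured probes alone, 120 at an adjusted p under 0.01, and 198 to 498 with 1 array left out. The 29 dye calls became 7, 8, 19, 18 and 6 in the same settings, and 2 to 256. The 1 preparation call became 3 with the median of probes, 0 without values beyond 6 (329 at an unadjusted p under 0.05 by limma), and 1 to 25. The number of features tested changed as well, from 4892 to 5014 with each probe its own feature and 4773 with fully measured probes. With 1 array left out it was 2920 to 8074 for the cell lines and 2920 to 4844 for dye and preparation. Without A3, B1 or B2, 1 preparation kept only 1 dye orientation, so the dye was not balanced in those counts. The causes were not tested. Pathway genes called lower ranged from 0 (without A3 or B2) to 5 (without A1), with 25 to 50 tested. The number of arrays limits the precision.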
